A study of Mus musculus with 6 samples.

Results

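Chemokines and their receptors were compared between 2 mouse cell lines. By the submitters' protocol, RNA of these lines was sequenced by the nanopore direct RNA method, in which the RNA strand itself passes the pore. The genes were all rows of the gene table whose symbol was Cx3cl1 or began with Ccl, Cxcl, Ccr, Cxcr or Ackr followed by a number. This rule took 57 of 34724 genes, of which 37 were ligands and 20 were receptors. The lines were 2H-11, labelled as tumor endothelial cells, and SVEC4-10, labelled as normal endothelial cells, with 3 libraries each. Both lines were derived from the axillary lymph node of adult C3H/HeJ mice and were transformed with SV40, and the labels name no treatment. The label tumor and the label normal each rest on 1 line, so the origin of a line and its other properties cannot be told apart. Separate cultures are not stated for the libraries, so p-values reflect only how these libraries vary, which may be technical variation.

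Total counts lay between 3628400 and 16798666 per library, and replicate 3 of SVEC4-10 held 68.0% of the counts of its line. Levels are given in CPM, which are read counts scaled to a library total of 1000000, and values after ± give the standard deviation (SD) among the libraries of each line (n = 3). Of 12 endothelial markers, 11 were under 1 CPM in all 6 libraries, and Tie1, Vwf, Erg, Emcn, Icam2 and Cldn5 had no count in any. The exception was Egfl7, a secreted endothelial factor, with 85 counts in 2H-11 and 20 in SVEC4-10. Of 15 leukocyte markers, 11 were under 1 CPM in all libraries. Ptprc, the pan-leukocyte antigen CD45, had 0 counts in 2H-11 and 2 in SVEC4-10, and Cd3e, Itgam and Adgre1 had none in either line. Those with the most counts were Coro1a, an actin-binding protein, with 55 and 7 counts and called higher in 2H-11 (log2 fold change 3.49, adjusted p = 1.47e-05), Cd68 with 54 and 86, Lyz2 with 22 and 14, and Csf1r with 11 and 1. Summed over the list, leukocyte markers stood at 7.81 to 11.7 CPM in 2H-11 and at 3.74 to 10.2 CPM in SVEC4-10. The summed level of 8 mesothelial markers was 58.5 to 72.4 CPM in 2H-11 and, in SVEC4-10, 3400 to 4296 CPM, and that of 10 fibroblast and mural markers was 1799 to 2304 and 2087 to 2195 CPM. Not every marker followed these sums. Of the 8 fibroblast and mural markers tested, 5 were called higher in 2H-11, among them Pdgfrb with 417 counts and none in SVEC4-10. Dcn alone was called lower, with 207 and 6962 counts. Over all genes tested, 20.1% were called higher and 16.2% lower. Of the 7 mesothelial markers tested, 6 were called lower, and Krt19 alone was called higher, with 339 and 4 counts. The part of these markers in the chemokine differences was not tested, and in bulk RNA fewer cells of a type and less RNA per cell cannot be told apart.

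Chemokines are small proteins that guide the movement of leukocytes and other cells, and most are secreted and held on glycosaminoglycans of the cell surface. Conventional receptors of the Ccr and Cxcr families signal through inhibitory G proteins, while atypical receptors of the Ackr family bind chemokines without that signalling and take them up. Stromal and vessel-lining cells are known sources of monocyte-attracting Ccl2, of interferon-induced Cxcl10 and of Cxcl12, which retains blood-forming and lymphoid cells.

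The 37 ligands of the table are classed by name after the spacing of their first cysteines, and this spacing is shown because the results below are ordered by it. In the GENCODE M21 coding sequences (GRCm38), each gene was searched only for the spacing that its symbol names, and the first match was taken. The search therefore could not place a gene in another class, and a match need not be the paired cysteines of the protein. The CC spacing, with no codon between the cysteine codons, was found in all 23 Ccl genes. The CXC spacing, with 1 codon between them, was found in 12 Cxcl genes and not in the sequence searched for Cxcl11. This annotation lists Cxcl11 as a polymorphic pseudogene. Cx3cl1 had 3 codons between its cysteine codons. All sequences shown here are those of the reference genome, and the alleles of the C3H/HeJ lines were not examined. Stretches of the coding strand around the motif follow, 5′ to 3′, with the paired cysteine codons in capitals. In Cxcl1 and Cxcl5 the capitals also take in the codons for glutamate, leucine and arginine that come directly before the first of these cysteines.
Ccl2: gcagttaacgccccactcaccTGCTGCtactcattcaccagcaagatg
Ccl7: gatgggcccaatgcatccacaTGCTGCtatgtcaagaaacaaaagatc
Ccl5: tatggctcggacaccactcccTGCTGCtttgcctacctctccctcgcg
Cxcl1: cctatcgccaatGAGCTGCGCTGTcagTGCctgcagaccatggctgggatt
Cxcl5: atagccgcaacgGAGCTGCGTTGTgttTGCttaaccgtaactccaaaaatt
Cxcl10: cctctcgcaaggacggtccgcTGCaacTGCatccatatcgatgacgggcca
Cxcl12: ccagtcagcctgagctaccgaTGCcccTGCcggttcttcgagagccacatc
Cxcl16: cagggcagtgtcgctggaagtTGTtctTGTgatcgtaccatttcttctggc
Cx3cl1: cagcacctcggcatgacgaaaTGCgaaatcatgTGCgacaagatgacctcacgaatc
The glutamate, leucine and arginine codons (the ELR motif of neutrophil-attracting CXC chemokines) were present in 5 of the 12 Cxcl genes with the motif, namely Cxcl1, Cxcl2, Cxcl3, Cxcl5 and Cxcl15.

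Counts were concentrated in few of these genes. In all, 13 of the 57 genes had enough counts to be tested, 26 were counted but too low for the test, and 18 had no count at all. Among the 13 tested, 7 were higher in 2H-11 at an adjusted p under 0.05 (Ccl27a, Ackr3, Cxcl5, Ccl9, Cxcl16, Cx3cl1 and Cxcl1), where 20.1% of all 13187 genes tested were called higher. A further 4 were lower (Cxcl10, Cxcl12, Ccl5 and Ccl2), where 16.2% of all genes were called lower, and Ccl7 and Ccl25 were not called. In either direction 11 of the 13 were called, beside 36.2% of all genes tested. The libraries of the lines did not overlap for 12 of the 13, beside 46.8% of all genes tested. In 8 of these, among them Ccl7, 2H-11 was the higher line, beside 28% of all genes, and in 4 it was the lower, beside 18.8%. The median log2 fold change, taken as 2H-11 over SVEC4-10 throughout, was 1.96 over the 13 genes and 0.0025 over all genes tested. A gene that is low in SVEC4-10 reaches the test only through its counts in 2H-11, and the reverse holds too, so these counts and this median only describe the genes that passed.

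**Figure D1:**
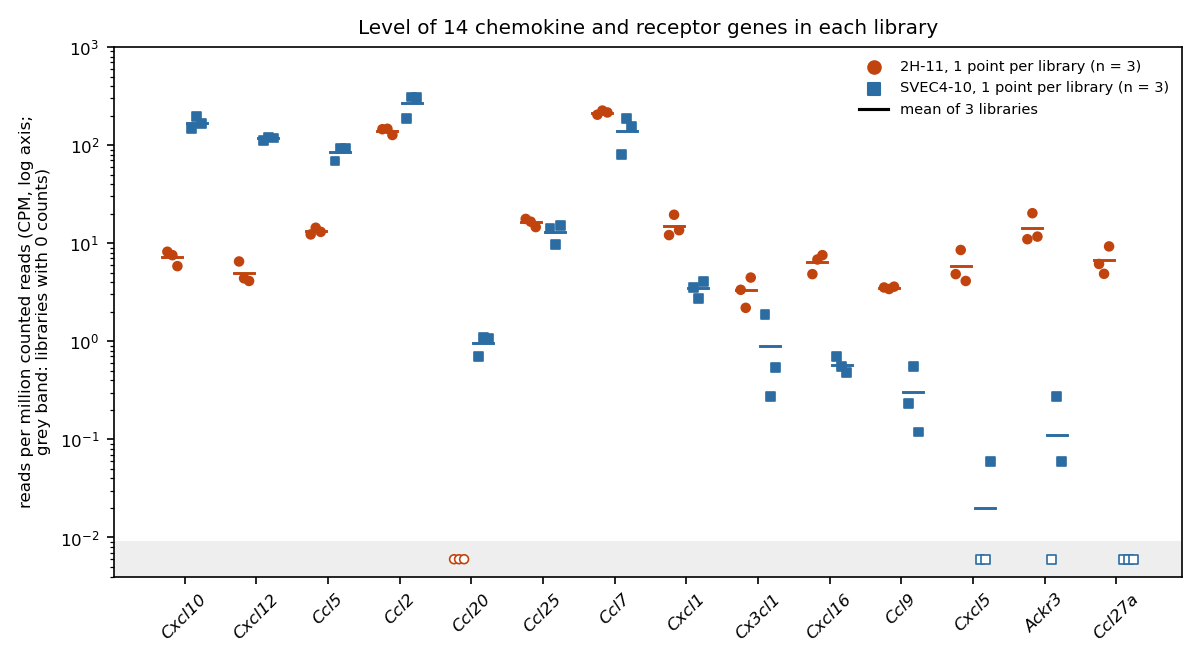
Level of the 13 tested genes and of Ccl20 in each library, as CPM on a log axis, with 1 point per library, the mean of each line as a bar and libraries with 0 counts in the grey band. Cxcl10 and Cxcl12 lie at 112 CPM or more in each SVEC4-10 library and at 8.19 CPM or less in each 2H-11 library, while Ccl27a has no count in SVEC4-10.

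**Figure D2:**
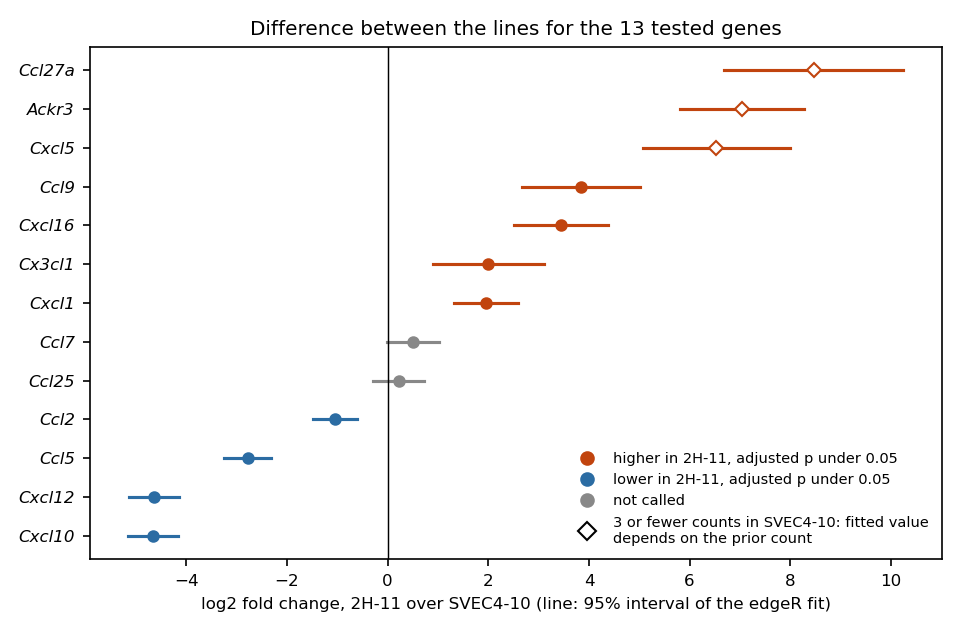
Log2 fold change of the 13 tested genes, 2H-11 over SVEC4-10, with the 95% interval of the edgeR fit as a line. The intervals of Ccl7 and Ccl25 include 0, and open diamonds mark Ccl27a, Ackr3 and Cxcl5, whose fitted values depend on the prior count since SVEC4-10 had 3 or fewer counts.

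Among the tested genes, Cxcl10 and Cxcl12 were the furthest below SVEC4-10 in 2H-11. Cxcl10, an interferon-induced attractant of activated T cells that acts through Cxcr3 (ENSMUSG00000034855, chr5:92346638-92348889), stood at 8.19, 7.55 and 5.84 CPM in 2H-11 replicates 1 to 3 and at 148, 194 and 166 CPM in those of SVEC4-10. Every SVEC4-10 library was far above every 2H-11 library. The log2 fold change was -4.66 (SE 0.23), which is 25.3-fold lower in 2H-11 (95% interval 18.02 to 35.5, adjusted p = 3.59e-11). On the opposite strand, Art3 shares 133 of the 2252 exon bases of Cxcl10, and the use of strand in counting was not given in the sources used here. Otherwise this interferon-induced group was almost uncounted. Cxcl9 had 5 counts in 2H-11 and 0 in SVEC4-10, and Cxcl11, a polymorphic pseudogene in GENCODE M21, had 0 and 3. All 3 genes lie on the minus strand, with 18.558 kb between Cxcl9 and Cxcl10 and 10.654 kb between Cxcl10 and Cxcl11. The abundance of Cxcl10 in SVEC4-10 was thus not shared by the chemokine genes next to it. Summed over the 3 genes, the group stood at 7.52 ± 1.02 CPM in 2H-11 and, in SVEC4-10, 169 ± 23.2 CPM.

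The 250 bases before the RefSeq start (GRCm38.p6) are shown for Cxcl10 and its neighbour Cxcl9, because these genes lie side by side and differed so much in count, and for Cxcl1 and Cxcl12, which differed in opposite directions. Each is written 5′ to 3′ on the strand of its gene. Capitals mark matches on either strand to the core of the interferon-stimulated response element (GAAA, 2 bases of any kind, then GAAA) or to the kappa-B consensus, the binding motif of the NF-kB family.
Cxcl10 (chr5:92348890-92349139, minus strand): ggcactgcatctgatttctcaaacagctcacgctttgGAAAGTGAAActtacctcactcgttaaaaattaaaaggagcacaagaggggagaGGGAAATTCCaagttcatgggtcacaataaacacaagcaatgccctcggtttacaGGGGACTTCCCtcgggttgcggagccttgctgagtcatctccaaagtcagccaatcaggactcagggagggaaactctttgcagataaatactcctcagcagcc
Cxcl9 (chr5:92328080-92328329, minus strand): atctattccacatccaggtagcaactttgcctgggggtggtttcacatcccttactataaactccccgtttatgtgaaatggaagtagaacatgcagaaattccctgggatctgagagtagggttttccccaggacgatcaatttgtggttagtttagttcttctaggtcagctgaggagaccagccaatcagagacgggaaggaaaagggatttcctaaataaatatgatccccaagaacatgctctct
Cxcl1 (chr5:90890995-90891244, plus strand): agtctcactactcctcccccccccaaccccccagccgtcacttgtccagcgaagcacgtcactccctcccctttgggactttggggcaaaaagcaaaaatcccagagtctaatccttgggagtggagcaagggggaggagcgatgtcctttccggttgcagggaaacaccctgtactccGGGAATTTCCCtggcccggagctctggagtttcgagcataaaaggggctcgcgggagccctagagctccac
Cxcl12 (chr6:117168285-117168534, plus strand): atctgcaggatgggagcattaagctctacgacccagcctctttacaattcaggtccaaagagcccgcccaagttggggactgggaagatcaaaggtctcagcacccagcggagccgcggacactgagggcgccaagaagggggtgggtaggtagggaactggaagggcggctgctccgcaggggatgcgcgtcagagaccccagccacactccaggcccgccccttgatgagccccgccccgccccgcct
The response element core stood 213 to 204 bases before the start of Cxcl10, and kappa-B matches stood at 159 to 150 bases and, overlapping each other, at 104 to 94 bases. Cxcl1 held overlapping kappa-B matches 71 to 61 bases before its start. Neither motif was found in these windows of Cxcl9 and Cxcl12. A promoter was listed for 42 of the 57 genes, among them 8 of the 13 tested, in 49 windows. A gene was taken to hold a motif if any of its windows did, while the shares given are of single windows. The response element core was found for Cxcl10, Ccl19 and Cxcl14, and 2.98% of all 32851 windows of the same length held it. The kappa-B consensus was found for 11 genes (Cxcl1, Cxcl2, Cxcl3, Cxcl10, Ccl1, Ccl9, Ccl20, Ccr1, Ccr3, Ccr6 and Ackr2), with 7.25% of all windows holding it. Among these 11 genes were Cxcl1 and Ccl9, higher in 2H-11, Cxcl10, lower there, and Ccl1, Ccr1 and Ccr6, with no count. These matches describe letters and not bound sites.

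Cxcl12, the attractant of Cxcr4-bearing cells (ENSMUSG00000061353, chr6:117168535-117181367), measured 6.51, 4.38 and 4.12 CPM in 2H-11 against 112, 121 and 118 CPM in SVEC4-10. The SVEC4-10 libraries lay close together, and none came near those of 2H-11. Its log2 fold change was -4.64 (SE 0.24), or 24.9-fold lower in 2H-11 (95% interval 17.6 to 35.2, adjusted p = 5.30e-11). The receptors of Cxcl12 gave a different picture. Cxcr4, which transmits its signal, had 0 counts in 2H-11 and 1 in SVEC4-10.

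Ackr3, an atypical receptor that binds and removes Cxcl12 (ENSMUSG00000044337, chr1:90203980-90216751), was the only receptor of the 20 with enough counts for the test. It reached 10.98, 20.2 and 11.7 CPM in 2H-11 against 0, 0.276 and 0.0595 CPM in SVEC4-10. All 2H-11 libraries were above all SVEC4-10 libraries, with 210 counts against 2. The ratio of these sums, scaled to the depth of each line, was 169 (95% counting interval 46.3 to 1409), and the adjusted p was 2.58e-08. Resting on 2 counts, the ratio became 289 (51.3 to 11475) without SVEC4-10 replicate 2 and 108 (19.3 to 4305) without SVEC4-10 replicate 3. Ligand and scavenging receptor therefore differed in opposite directions, Cxcl12 being lower and Ackr3 higher in 2H-11.

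Among the ELR CXC chemokines, which attract neutrophils through Cxcr2, both tested genes were higher in 2H-11. Cxcl1 (ENSMUSG00000029380, chr5:90891241-90893115) stood at 12.1, 19.5 and 13.6 CPM in 2H-11 and at 3.51, 2.76 and 4.11 CPM in SVEC4-10, with no overlap. The log2 fold change was 1.96 (SE 0.30), which is 3.88-fold (95% interval 2.50 to 6.03, adjusted p = 4.60e-05). Cxcl5 (ENSMUSG00000029371, chr5:90759360-90761624) measured 4.84, 8.53 and 4.12 CPM in 2H-11, and 0, 0 and 0.0595 CPM in SVEC4-10. Its only SVEC4-10 count came from replicate 3, the deepest library. The ratio of 85 counts to 1 was 137 once each sum was scaled to its line (95% counting interval 24.0 to 5482, adjusted p = 6.28e-07). Without SVEC4-10 replicate 3 the line had no count of Cxcl5, and the fold was at least 15.4 against the limit of 3 counts.

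The other ELR genes stayed below the test. Cxcl2 had 4 counts in 2H-11 and 1 in SVEC4-10, Cxcl3 had 5 and 0, and Cxcl15 had 0 and 2. Summed over the 5 ELR genes the level was 21.4 ± 5.94 CPM in 2H-11 and, in SVEC4-10, 3.61 ± 0.633 CPM. The coding sequences of Cxcl1 and Cxcl2 were identical at 75.6% of the bases of the longer, and how reads of such relatives were shared out was not given in the sources used here. Cxcr2, the receptor of these ligands, had 2 and 3 counts, and Cxcr1 had none.

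The membrane-tethered chemokines were also higher in 2H-11. Cxcl16, which is anchored by a mucin stalk and binds Cxcr6 (ENSMUSG00000018920, chr11:70453983-70459984), reached 4.84, 6.82 and 7.55 CPM in 2H-11 against 0.701, 0.551 and 0.476 CPM in SVEC4-10, without overlap. It was 10.8-fold higher (log2 fold change 3.44, SE 0.45, 95% interval of the fold 5.67 to 20.7, adjusted p = 6.21e-06). Zmynd15 lies on the opposite strand and shares 552 of the 3021 exon bases of Cxcl16. Cx3cl1, or fractalkine, the ligand of Cx3cr1 (ENSMUSG00000031778, chr8:94772009-94782427), stood at 3.35, 2.19 and 4.46 CPM in 2H-11 and at 1.87, 0.276 and 0.536 CPM in SVEC4-10. The lowest 2H-11 library was just above the highest of SVEC4-10. The log2 fold change was 2.00 (SE 0.52, 4.0-fold, 95% interval 1.86 to 8.57, adjusted p = 0.00562), from 53 and 18 counts. This call was lost without SVEC4-10 replicate 3, where the log2 fold change was 1.46 and the adjusted p 0.0973, and the log2 fold change was 2.64 without SVEC4-10 replicate 1.

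The remaining CXC ligands were at or near 0. Cxcl14 had 0 counts in 2H-11 and 2 in SVEC4-10, Cxcl17 had 0 and 1, and Cxcl13, the attractant of B cells to follicles, had none.

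The monocyte chemoattractants Ccl2 and Ccl7 held most of the chemokine reads of 2H-11 and a large part of those of SVEC4-10. Ccl2, the main ligand of Ccr2 (ENSMUSG00000035385, chr11:82035571-82037453), measured 145, 147 and 127 CPM in 2H-11 against 185, 310 and 304 CPM in SVEC4-10. All SVEC4-10 libraries were above those of 2H-11, replicate 1 by the smallest margin. The log2 fold change was -1.04 (SE 0.21), or 2.06-fold lower in 2H-11 (95% interval 1.53 to 2.78, adjusted p = 0.000558). Ccl7, a related ligand of Ccr2 and other receptors (ENSMUSG00000035373, chr11:82045712-82047525), measured 204, 225 and 215 CPM in 2H-11 against 79.9, 185 and 154 CPM in SVEC4-10. The lines did not overlap, yet the SVEC4-10 libraries were widely spread. The log2 fold change was 0.51 (SE 0.24, 95% interval -0.0045 to 1.02), and the adjusted p was 0.115, so the difference was not called. Without SVEC4-10 replicate 2 it was called, at a log2 fold change of 0.74 (adjusted p = 0.0265), and with libraries scaled by their size alone it was called at 0.62 (adjusted p = 0.0433). Without SVEC4-10 replicate 1 the log2 fold change was 0.16 (adjusted p = 0.553).

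These genes lie 8.258 kb apart on chromosome 11, and the proportion between them differed between the lines. Reads of Ccl7 per read of Ccl2 were 1.41, 1.53 and 1.70 in 2H-11 and 0.431, 0.599 and 0.506 in SVEC4-10. In mean the ratio was 1.55 ± 0.146 against 0.512 ± 0.0839, and each 2H-11 library was above each SVEC4-10 library. An exact two-sided permutation test gave p = 0.1, the smallest that 3 against 3 libraries allow. It was computed with the ratios Cxcl12 to Ccl2 and Cxcl10 to Ccl5, all 3 chosen after the levels were seen, and each had this same p. The other genes of the cluster were sparse. Ccl8 had 12 counts in 2H-11 and 7 in SVEC4-10, Ccl11, or eotaxin, had 0 and 1, and Ccl12 and Ccl1 had none. The eotaxins Ccl24 and Ccl26, on chromosome 5, also had none.

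**Figure D3:**
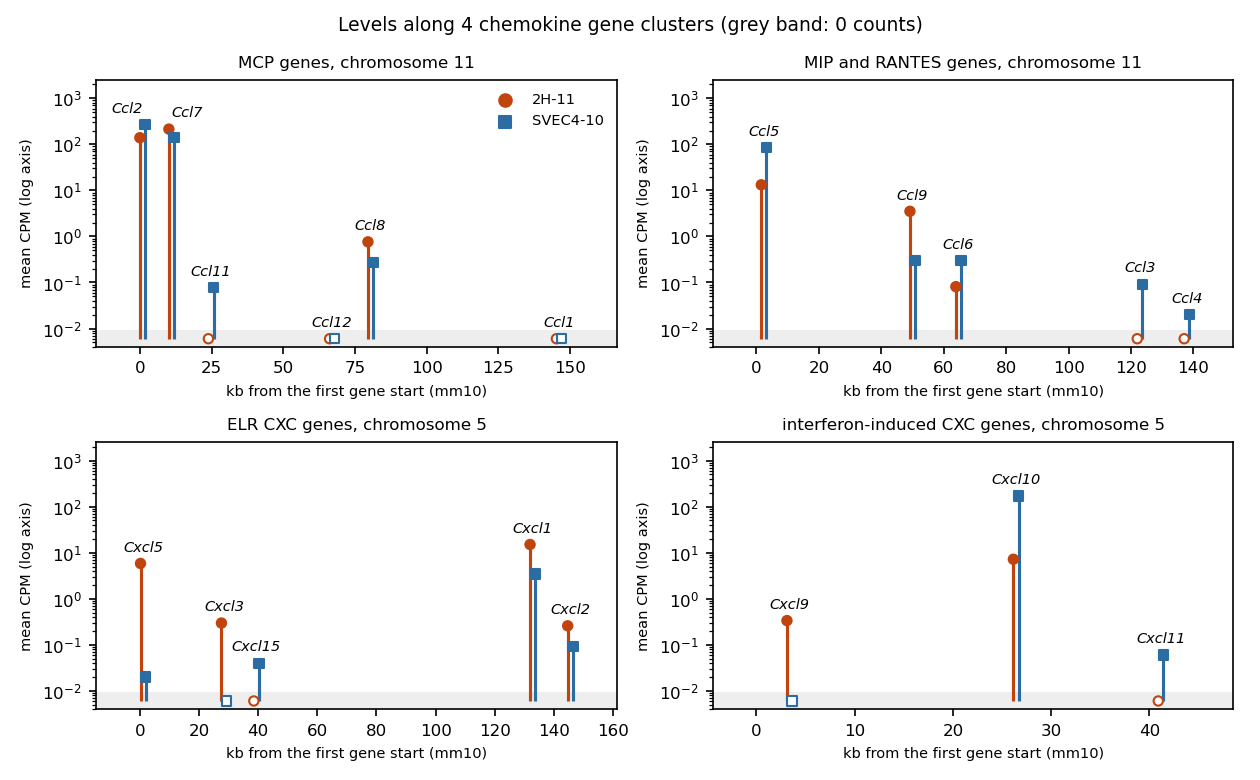
Mean level over the 3 libraries of each line along 4 chemokine clusters, in CPM on a log axis, against the distance in kb from the start of the first gene, with open symbols in the grey band for 0 counts and the lines drawn side by side. High and nearly uncounted genes stand next to each other in each cluster, as for Ccl7 and Ccl11 or Cxcl10 and its neighbours.

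In the cluster of macrophage inflammatory protein and RANTES genes, 2 genes differed in opposite directions. Ccl5, or RANTES, an attractant of T cells and monocytes (ENSMUSG00000035042, chr11:83525778-83530518), stood at 12.3, 14.4 and 13.04 CPM in 2H-11 and at 68.7, 91.5 and 93.3 CPM in SVEC4-10, with no overlap. It was 6.87-fold lower in 2H-11 (log2 fold change -2.78, SE 0.22, 95% interval of the fold 4.97 to 9.50, adjusted p = 1.53e-08). Ccl9, a myeloid attractant that binds Ccr1 (ENSMUSG00000019122, chr11:83572919-83578636), measured 3.53, 3.41 and 3.60 CPM in 2H-11 against 0.234, 0.551 and 0.119 CPM in SVEC4-10. The 2H-11 libraries were nearly equal and all above those of SVEC4-10. Ccl9 was 14.3-fold higher (log2 fold change 3.84, SE 0.55, 95% interval of the fold 6.397 to 32.2, adjusted p = 2.14e-05). The SVEC4-10 level rests on 5 counts. With 3 counts left, the ratio of the scaled sums was 24.8 (95% counting interval 8.04 to 124) without SVEC4-10 replicate 2 and 9.30 (3.02 to 46.5) without SVEC4-10 replicate 3. Ccl3 and Ccl4 each had 0 counts in 2H-11 and 1 in SVEC4-10, and Ccl6 had 1 and 5.

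Among the lymphoid and epithelial CC chemokines, Ccl27a was counted in 2H-11 only. Ccl27a, known for drawing T cells to skin through Ccr10 (ENSMUSG00000073888, chr4:41769467-41774247), stood at 6.14, 4.87 and 9.27 CPM in 2H-11, with 107 counts, and had no count in any SVEC4-10 library. Taken against the limit of 3 counts over the line, which is 0.121 CPM, it was at least 55.7-fold higher in 2H-11 (adjusted p = 6.55e-07). Without SVEC4-10 replicate 3 this bound was at least 17.8. Its paralog Ccl27b had no count. Their longest annotated coding sequences were identical at 69.1% of the longer, a share held down by length, with 495 bases for Ccl27a and 363 for Ccl27b. Around the cysteine codons their stretches were the same letter for letter. How reads of these paralogs were shared out was not given in the sources used here. Il11ra1 on the opposite strand shares 8 of the 2377 exon bases of Ccl27a.

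Ccl25, a ligand of Ccr9 in thymus and gut (ENSMUSG00000023235, chr8:4325210-4360020), measured 17.7, 16.6 and 14.6 CPM in 2H-11 against 14.02, 9.65 and 15 CPM in SVEC4-10. The libraries overlapped. The log2 fold change was 0.22 (SE 0.24, 95% interval of the fold 0.818 to 1.66, adjusted p = 0.522), so a difference larger than 1.66-fold lay outside the interval. Elavl1 on the opposite strand shares 204 of the 7445 exon bases of Ccl25.

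Ccl20, the ligand of Ccr6 (ENSMUSG00000026166, chr1:83116766-83119167), had 0 counts in each 2H-11 library and 3, 4 and 18 counts in the SVEC4-10 libraries, or 0.701, 1.102 and 1.07 CPM. It did not pass the filter on low counts. Against 3 counts over the line, which is 0.196 CPM in 2H-11, it was at least 4.89-fold lower there. The bound was 3.17 when replicate 1 of 2H-11 was left out and 3.03 when replicate 3 of it was. With no filter on low counts it was called lower (adjusted p = 0.000416), and no other gene of the 26 was called in that fit. Ccl17 had 6 counts in 2H-11 and 7 in SVEC4-10, and Ccl28 had 1 in each. Ccl19 and the paralogs Ccl21a and Ccl21b, which guide cells into lymph nodes through Ccr7, had no count in either line, nor had Ccl22.

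Apart from Ackr3, the 19 receptors together had 9 counts in 2H-11 and 21 in SVEC4-10. Among the CC receptors, Ccr10 had 3 counts in 2H-11 and 2 in SVEC4-10, and Ccr7, the receptor for Ccl19 and Ccl21, had 0 and 4. Ccr3 and Ccr9 each had 0 and 1. Of the CXC receptors not yet named, Cxcr5 and Cxcr6 each had 0 counts in 2H-11 and 1 in SVEC4-10. Of the atypical receptors, which differ in the ligands they remove, Ackr2 had 1 and 0 and Ackr4 had 0 and 2. All 11 counted genes of these 19 were below the filter on low counts.

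Uncounted in both lines were 18 genes. The ligands among them were Ccl1, Ccl12, Ccl19, Ccl21a, Ccl21b, Ccl22, Ccl24, Ccl26, Ccl27b and Cxcl13, which makes 10 of 37. The receptors were Ccr1, Ccr2, Ccr4, Ccr6, Ccr8, Cxcr1, Cxcr3 and Ackr1, which makes 8 of 20. Several are the receptors of ligands found here, since Ccr2 binds Ccl2 and Ccl7, Cxcr3 binds Cxcl10, Ccr1 binds Ccl9 and Ccl5, and Ccr6 binds Ccl20. A count of 0 over a line allows at most 0.196 CPM for 2H-11 (3 of 15306470 counts) and at most 0.121 CPM for SVEC4-10 (3 of 24705490), and this limit covers counting error only. Of the 26 genes counted but not tested, 3 were counted only in 2H-11 (Cxcl3, Cxcl9 and Ackr2), 15 only in SVEC4-10 and 8 in both, and 15 had 3 or fewer counts over all 6 libraries. The deeper sequencing of SVEC4-10 goes with this split, and its part in it was not tested.

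**Figure D4:**
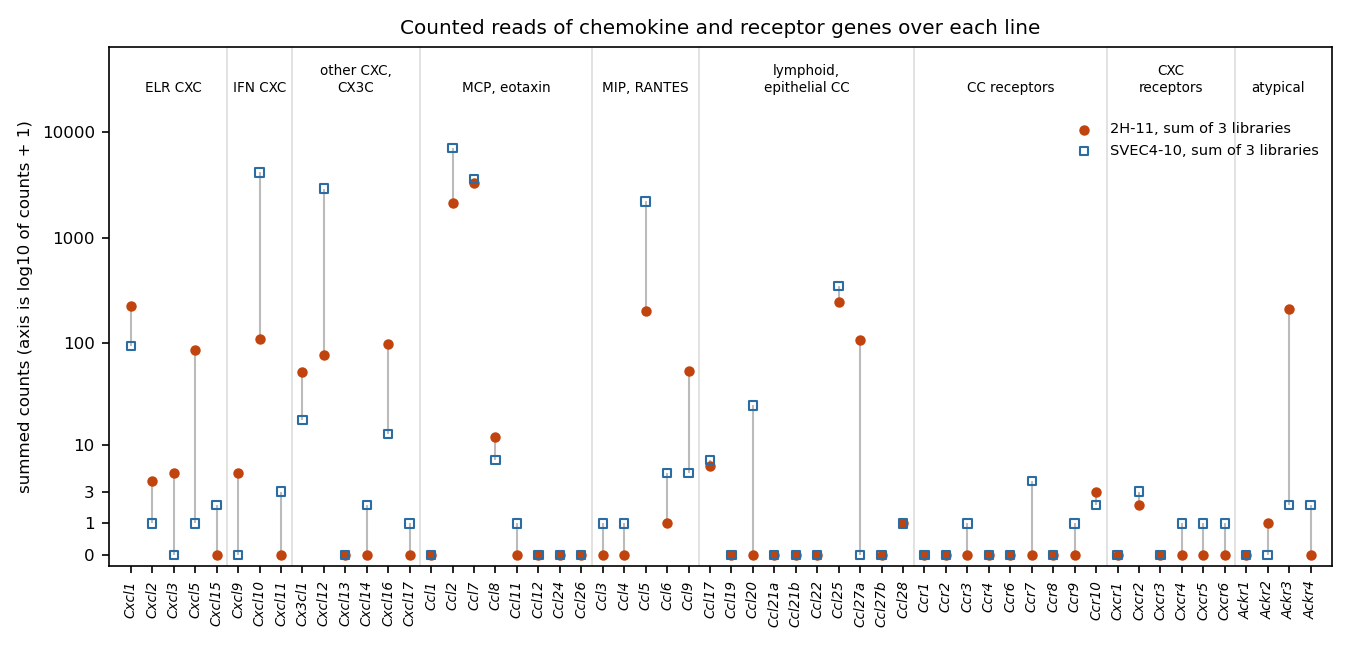
Counts of the chemokine and receptor genes reported here, summed over the 3 libraries of each line, on an axis of log10 of counts plus 1, ordered by role. The 18 uncounted genes lie at 0 in both lines, and among the receptors Ackr3 alone rises above 10 counts.

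By role, the ligands summed to 439 ± 20.2 CPM in 2H-11 and, in SVEC4-10, 797 ± 159 CPM. Shares of all ligand reads showed a different make-up of the lines. Ccl7 made up 47.5 to 50.6% of ligand reads in 2H-11 and 12.97 to 20.2% in SVEC4-10. Ccl2 had overlapping shares, 29.8 to 33.8% and 30.1 to 35.4%. Cxcl10 took 1.37 to 1.90% in 2H-11 and 19.4 to 24.0% in SVEC4-10, Cxcl12 took 0.949 to 1.52% and 13.2 to 18.2%, and Ccl5 took 2.86 to 3.11% and 9.97 to 11.1%. Shares are of reads, not scaled by length, and within a library they depend on each other.

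**Figure D5:**
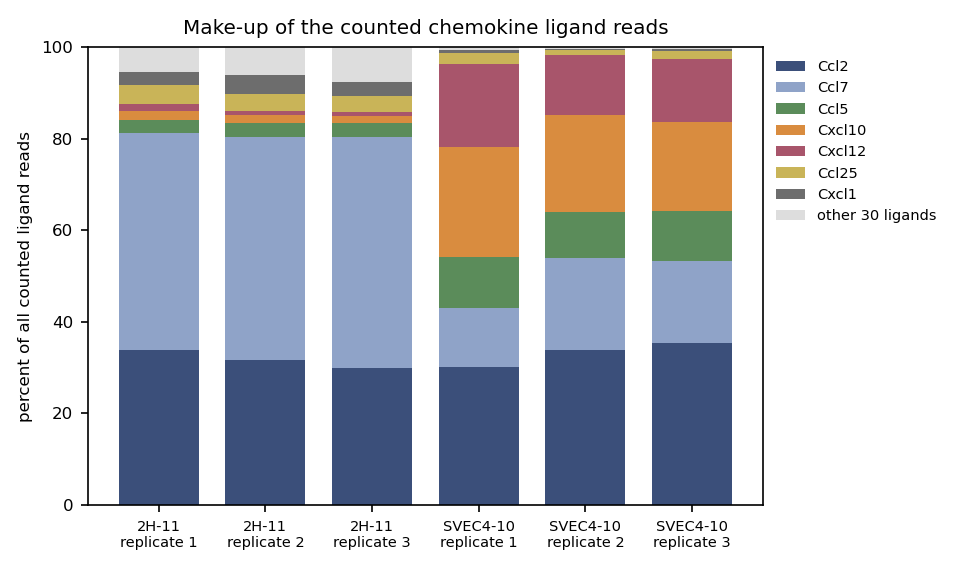
Share of all counted ligand reads in each library, in percent, for 7 ligands and for the other 30 ligands together, as stacked bars. Ccl2 and Ccl7 together fill most of each 2H-11 bar and a smaller but still large part of each SVEC4-10 bar. Cxcl10, Cxcl12 and Ccl5 are wider in each SVEC4-10 bar.

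Genes around the chemokines were read from lists, whose counts describe them only. Of 17 relatives outside the symbol rule, such as Pf4, Xcl1, Cx3cr1 and Mif, 6 were tested and 1 was called, beside 36.2% of all genes tested, with a median log2 fold change of 0.01. This was Cmtm7, a chemokine-like factor family gene, at 62.1 ± 14.4 CPM in 2H-11 and, in SVEC4-10, 120 ± 16.6 CPM (log2 fold change -1.03, adjusted p = 0.000727). Of 13 genes for shedding, cleavage and glycosaminoglycan presentation, 12 were tested, 2 were called higher and 4 lower, beside 20.1% and 16.2% of all genes, and the median log2 fold change was -0.07. Syndecans, which carry the heparan sulfate that holds chemokines, were called in both directions. Sdc1 was higher (51.2 ± 7.67 against 27.0 ± 6.98 CPM, log2 fold change 0.85, adjusted p = 0.00486), and so was Sdc3, with 173 counts in 2H-11 and 4 in SVEC4-10 (log2 fold change 5.96, adjusted p = 6.96e-08). All 4 counts of Sdc3 came from SVEC4-10 replicate 3, without which the fold was at least 30.5 against the limit of 3 counts. Sdc4 was lower (35.3 ± 6.63 against 92.5 ± 28.1 CPM, log2 fold change -1.50, adjusted p = 4.24e-05). Sdc2, at a log2 fold change of -0.50 (adjusted p = 0.0390), and the sulfotransferase gene Hs6st1, at -1.09 (adjusted p = 0.0189), were also called lower. Both of these calls depended on the libraries used and on the depth or scaling. Hs6st1 lost its call without 2H-11 replicate 2 (adjusted p = 0.0706) or SVEC4-10 replicate 3 (0.0768), and Sdc2 lost it without 2H-11 replicate 2 (0.110) or 3 (0.122), or SVEC4-10 replicate 1 (0.0821) or 2 (0.0735). With libraries thinned to the smallest, the adjusted p was 0.0779 for Hs6st1 and 0.0600 for Sdc2, and for Sdc2 it was 0.0803 with Ensembl identifiers alone and 0.0995 with libraries scaled by size alone.

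Of 20 genes of receptor signalling, 12 were tested, 3 were higher and 1 was lower, beside 20.1% and 16.2% of all genes, and their median log2 fold change was 0.20. Gnai1, an inhibitory G protein subunit, had 3 counts in 2H-11 against 269 in SVEC4-10. The scaled sums differed 55.6-fold (95% interval from the counts 18.8 to 271, adjusted p = 1.25e-07). The ratio was 122 when replicate 2 of 2H-11 was left out and 34.4 when replicate 3 of it was. Gnb1, a G protein beta subunit, was higher, with 190 ± 12.9 CPM in 2H-11 and 98.3 ± 21.3 in the other line (log2 fold change 0.85, adjusted p = 0.00119). Plcb3, a phospholipase, and Rgs3, which shortens G protein signals, were called higher at log2 fold changes of 0.97 (adjusted p = 0.0260) and 0.77 (adjusted p = 0.0210). Plcb3 lost its call without 2H-11 replicate 3 (adjusted p = 0.141) or SVEC4-10 replicate 1 (0.0539), 2 (0.0657) or 3 (0.0996). Rgs3 lost it without 2H-11 replicate 2 (0.0654) or 3 (0.0517), or SVEC4-10 replicate 2 (0.0552) or 3 (0.132).

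Of 25 NF-kB pathway genes, which control many chemokines, 23 were tested. Called higher were 2 and called lower 2, beside 20.1% and 16.2% of all genes, and the median of the log2 fold changes was -0.30. Tnf, the inflammatory cytokine, stood at 4.17 ± 1.24 CPM in 2H-11, with 64 counts, while SVEC4-10 had none. Its level was at least 34.3-fold higher against the limit of 3 counts (adjusted p = 2.01e-06), and at least 10.98-fold without SVEC4-10 replicate 3. Il1r1, the interleukin 1 receptor, measured 37.0 ± 2.91 CPM in 2H-11 and, in SVEC4-10, 7.76 ± 2.93 CPM (log2 fold change 2.12, adjusted p = 2.53e-06). The inhibitor Tnfaip3 and the kinase gene Chuk were called lower, at log2 fold changes of -1.53 (adjusted p = 0.0315) and -0.72 (adjusted p = 0.0291). Tnfaip3 lost its call without 2H-11 replicate 1 (adjusted p = 0.0633) or 2 (0.124), or SVEC4-10 replicate 2 (0.0587) or 3, where the log2 fold change was -1.01 (0.267), and under DESeq2 (0.0665). Its log2 fold change was -2.31 without 2H-11 replicate 3. Chuk lost its call without 2H-11 replicate 2 (0.138) or 3 (0.0567), or SVEC4-10 replicate 3 (0.138), and with libraries scaled by size alone (0.0679). All 9 genes for the decay and stability of AU-rich mRNAs were tested, and 1 was called, beside 36.2% of all genes. Zfp36l1, a decay factor, was lower at 2.35 ± 1.13 against 6.98 ± 4.49 CPM (log2 fold change -1.65, adjusted p = 0.00767), and the call was lost without SVEC4-10 replicate 1 (log2 fold change -1.13, adjusted p = 0.0595).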

How the data were processed

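Direct RNA libraries of 2H-11 and SVEC4-10 (3 each) were prepared with the SQK-RNA002 kit from total RNA taken with Trizol, per the labels' protocols. The sample description names the method Iso-Seq instead, and the protocol was followed here. The authors deposited raw read counts per gene and the same values as CPM, each count over its library total, per the file headers. Builds mm10 and GRCm38 are named in the submitters' processing notes. Aligner, counter, annotation, filters and strand use were not given in the sources used here. Test columns of the authors were not used here. In total 13 broken lines naming no gene were left out.

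Counts were tested with edgeR 4.0.16 (R 4.3.3). The low-count filter was filterByExpr with a minimum of 10 counts and a minimum total of 15, scaling was by TMM, line was the only term of the quasi-likelihood test, and p-values were Benjamini-Hochberg adjusted over 13187 genes at a threshold of 0.05. The fit was tested on simulated data. Folds against 0 counts set the mean CPM of the counted line against 3 counts over the other line. They leave out the counting error of the counted line, so they are not 95% limits. Folds against 1 to 3 counts are ratios with exact 95% intervals. Neither kind covers variation other than counting error. Positions, exons and coding sequences came from GENCODE M21, where all 57 genes were found under the same symbol, and promoters from RefSeq. The longest coding sequence of each gene that opens with a start codon was used. Tables and figures used Python 3.11.15, pandas 2.3.3 and matplotlib 3.10.9. Alternatives were a replicate block, DESeq2 1.42.0, RLE size factors, library size alone, no filter, 20 counts in 3 libraries, Ensembl identifiers alone, libraries thinned to the smallest total, and each library left out in turn. The genes and lists were chosen with earlier results of these data known. Every tested gene was named with its values and the untested ones with their counts, except that some single values are not reported here, and from each pathway list up to 3 called genes of smallest p in each direction.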

Additional observations from a re-analysis of the deposited data

How the results depend on the processing

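Over 14 alternatives the 13 tested chemokine and receptor genes gave 177 values, of which 174 kept direction and side of the threshold, the others being those of Ccl7 and Cx3cl1 above, and no value changed sign. The number called lower was 4 under each alternative except with no filter, where it was 5, and the number called higher ranged from 5 to 8. Cx3cl1 was not tested in 4 alternatives and Ccl9 in 1, since they missed the filter. Over all genes, 2645 were called higher and 2133 lower. The genes tested included ones without an Ensembl identifier, whereas all 57 chemokine and receptor genes have one. With Ensembl identifiers alone fewer genes were tested, and 1657 were called higher and 1631 lower. Scaling on those genes moved the median log2 fold change of the 10149 genes shared by both fits up by 0.10. Leaving out 1 library gave 2281 to 2929 higher and 1754 to 2220 lower. With no filter on low counts 3854 genes were called higher and 3117 lower. Of 15 named pathway genes, 8 kept their call throughout.

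Samples with the same replicate number showed no shared deviation, with correlations of -0.018, 0.051 and -0.0026 across genes for numbers 1 to 3. This gave no sign that the numbers pair the libraries, but 3 libraries per line cannot exclude it. A design with a replicate block called 2491 genes higher and 1970 lower, and 7 and 4 of the chemokine and receptor genes, with no call changed (Ccl7 adjusted p = 0.0508). Not every library correlated best with its own number. Depth limits the 44 genes that were not tested.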
